A study of Mus musculus with 36 samples.

Results

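In all, 66 genes of the mouse heart apex reached their highest RNA level in the evening in control mice, and they are described here across 6 times of day in hearts with and without Klf15. They were chosen from 10599 genes whose FPKM averaged at least 1 over 36 libraries, of 23352 gene entries. FPKM is a count of sequenced fragments scaled by the length of the gene and by the size of the library. A cosine curve with a 24 h period was fitted to log2(FPKM + 1) in the 18 control libraries. Members had to reach an R squared of at least 0.5 and an amplitude of at least 0.2, and their fitted peak had to fall from 16 up to 22 h. The amplitude is the log2 distance between the middle and the top of the curve, and 12 am was read as hour 0. Core clock genes and close outputs of the clock were left out by name (the Per, Cry, Nr1d, Ror and Bhlhe4 genes, Dbp, Tef, Hlf, Nfil3, Ciart, Sphk2 and Usp2), and so was Gm129, an older symbol of Ciart that met the thresholds.

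RNA sequencing covered 2 genotypes in 12 groups of 3 libraries, sampled every 4 h, from 12 am, 4 am and 8 am to 12 pm, 4 pm and 8 pm. The hearts called cK15 are labelled as a Klf15 knockout. Control hearts carried the alpha-MHC cre transgene, whose promoter is active in heart muscle cells, and the sources used here do not give how the cK15 allele was made or whether cK15 mice carry the transgene. All animals were C57BL/6 males of 11 to 12 weeks under 12 h of light and 12 h of darkness, and the labels do not tell when the lights went on. The labels do not state that libraries of 1 group are from different mice, and p-values then measure only how far libraries spread, which may be technical.

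The circadian clock of heart cells is a loop in which the activators Clock and Bmal1 (gene Arntl) bind E-box sequences and switch on the Period and Cryptochrome genes, whose proteins later repress those activators. The same activators, with the D-box factors Dbp, Tef and Hlf and the nuclear receptors of the Rev-erb and Ror families, time many other genes. Meals, activity, body temperature and glucocorticoid hormone also set daily levels. In nocturnal mice the evening is the passage from rest to activity and feeding. Klf15 is a zinc-finger transcription factor that the clock itself drives in heart and that controls amino acid and lipid metabolism.

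Promoter windows of 300 bases, 250 before and 50 after a RefSeq start site, were found for 55 of the 66 members and gave 79 windows (GRCm38.p6). The E-box CACGTG, searched on both strands, was in 14 of the 79 windows (17.7%) and in 12 genes, against 10.2% of the windows of all tested genes and 7.15% of all 32851 windows. Windows of alternative starts of a gene were counted separately and can overlap. In Fam214a, the same E-box stands 10 bases before a start and 183 bases before another. In the windows of control rhythmic genes of other hours the share was 9 of 90 for peaks from 22 to 4 h, 9.35% for 4 to 10 h and 10.3% for 10 to 16 h, and no test of these shares was made. The D-box TTANGTAA, in which N is any base, was in 3 member windows (3.80%), against 1.45% and 2.32%. A match is a stretch of letters and says nothing of binding. The 4 stretches below are the 250 bases before the start of the members that were also rhythmic in cK15 and hold an E-box there, each read 5′ to 3′ on the strand of the gene, with E-box and D-box letters in capitals.
Rhobtb1, chr10:69212407-69212656, plus strand: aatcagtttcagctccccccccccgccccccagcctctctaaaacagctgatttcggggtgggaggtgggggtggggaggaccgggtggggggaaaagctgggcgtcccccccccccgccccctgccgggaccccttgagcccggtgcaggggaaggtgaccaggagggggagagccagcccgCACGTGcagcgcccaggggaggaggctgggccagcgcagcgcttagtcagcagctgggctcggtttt
Tspan4, chr7:141476130-141476379, plus strand: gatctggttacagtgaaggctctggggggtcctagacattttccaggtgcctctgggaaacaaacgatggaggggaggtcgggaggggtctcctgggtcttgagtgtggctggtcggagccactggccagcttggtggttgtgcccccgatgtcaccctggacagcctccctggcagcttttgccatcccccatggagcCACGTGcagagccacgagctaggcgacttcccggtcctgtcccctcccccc
Coq10b, chr1:55052520-55052769, plus strand: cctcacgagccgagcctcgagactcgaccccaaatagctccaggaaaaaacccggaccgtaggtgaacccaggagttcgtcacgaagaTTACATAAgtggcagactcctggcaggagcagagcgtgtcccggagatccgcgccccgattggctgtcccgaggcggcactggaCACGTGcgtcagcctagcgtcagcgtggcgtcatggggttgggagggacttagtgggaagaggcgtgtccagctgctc
Slc25a33, chr4:149774268-149774517, minus strand: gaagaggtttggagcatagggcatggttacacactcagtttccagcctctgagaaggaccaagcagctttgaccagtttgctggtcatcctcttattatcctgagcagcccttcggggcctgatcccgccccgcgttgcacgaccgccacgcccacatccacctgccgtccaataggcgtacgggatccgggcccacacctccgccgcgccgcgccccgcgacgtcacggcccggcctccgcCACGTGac
The E-box began 67 bases before the start in Rhobtb1, 51 in Tspan4, 78 in Coq10b and 8 in Slc25a33, and the D-box of Coq10b 162 bases before it. The Rhobtb1 and Tspan4 windows belong to starts inside the genes, which GENCODE places on chromosome 10 at 69151434 to 69291791 and on chromosome 7 at 141475240 to 141493427. Tspan4 overlaps Chid1 on the other strand. The promoters of Tcap, Wee1, Gstt2, Gpcpd1, Rbm3, Plod2, Park2, 3110002H16Rik, Fam76a and Fbxo32 were not analysed here.

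The summed FPKM of a library was between 534039 and 691583, and each library held 10339 to 10829 genes at 1 FPKM or more. The depth is unknown, since the files hold no counts. Klf15 was at 0.406 to 2.91 FPKM in control libraries and listed at 0 in 13 of 18 cK15 libraries, with at most 0.326 in the other 5. In 12 libraries, 1 of each group, the ventricular myosin light chain Myl2 was at 29700 to 35773 FPKM, against 43872 to 71845 in the other 24. The library of lower Myl2 was number 1 in cK15 and number 2 in control at 5 times, and number 4 in both genotypes at 8 pm. Main counts were repeated without those 12 libraries, as a check added after the data were seen; in the other 12 control libraries, 163 genes met the rule, of which 60 were among the 66.

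In control hearts, the members were low in the morning and high at the end of the day. Their mean log2 level, as a deviation from each gene's own mean, was -0.34 to -0.44 in the libraries of 8 am and 0.33 to 0.45 in those of 8 pm. The fitted peak fell from 16 to 18 h in 20 members, from 18 to 20 h in 19 and from 20 to 22 h in 27. Amplitudes in control ran from 0.20 to 1.03 with a median of 0.32, and the mean over all libraries ran from 1.02 to 303 FPKM. These values chose the members and are a description without a test. Of the 348 genes that met the same thresholds at any hour, 99 peaked from 22 to 4 h, 107 from 4 to 10 h and 76 from 10 to 16 h. A further 4 genes met the other thresholds with a mean FPKM below 1.

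In cK15 hearts the members had the same low morning and high evening on average. Their mean deviation was -0.20 to -0.29 at 8 am, 0.19 to 0.29 at 4 pm and 0.18 to 0.33 at 8 pm. The 4 pm and 8 pm libraries of cK15 overlapped in this mean, while every 8 pm library of control lay above every 4 pm library of control. The rule chose on the control values, so this contrast is no test of a changed evening in cK15.

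**Figure D1:**
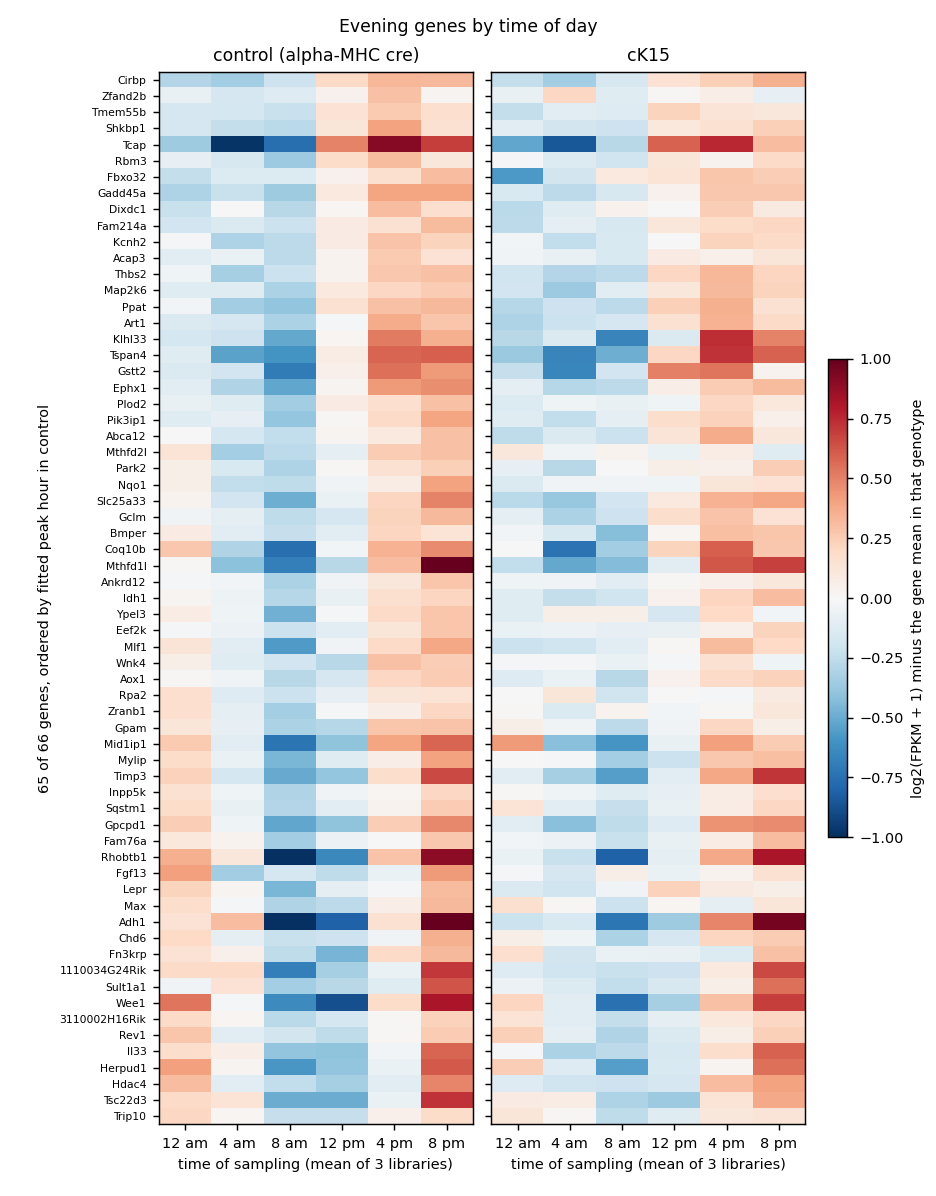
Level of 65 of the 66 evening genes at the 6 times, as log2(FPKM + 1) minus the mean of the gene in that genotype (colour, mean of 3 libraries), for control on the left and cK15 on the right. Rows are ordered by fitted peak hour in control; the control panel holds the values that chose the genes, and in both panels most rows are blue at 8 am and red at 8 pm.

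The rule did not use the cK15 libraries for rhythm, so a rhythm there could be tested. By limma's F test of the 24 h curve in the 18 cK15 libraries, adjusted over all 10599 genes by the Benjamini-Hochberg method, 20 of 66 members passed the threshold of 0.05 (30.3%). Over all tested genes 114 passed, 1.08%. At an unadjusted p under 0.05 the counts were 49 members and 949 of all genes. Of control rhythmic genes of other hours, 15 of 99 (22 to 4 h), 23 of 107 (4 to 10 h) and 12 of 76 (10 to 16 h) passed the same test. Without the libraries of lower Myl2, 12 cK15 libraries remained and 13 members passed; without cK15 replicate 4 at all its times 4 passed, without replicate 3 it was 6, and without replicate 1 it was 14. Tcap, Tspan4 and Mthfd1l passed in each of these 3 fits. The count was 11 with no filter on mean FPKM, 7 by a test of any difference among the 6 time means, and 37 with a term for the libraries of lower Myl2, which was also added after the data were seen.

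The amplitude in cK15 had a median of 0.28 and ran from 0.021 to 0.83. It was below the control amplitude in 54 of 66 members, but the rule set a floor on the control amplitude and none on that of cK15, so the choice of members favours this direction. In 8 of the 20 members that passed, the amplitude was higher in cK15. In 11 of the 46 that did not pass, it was under 0.5 times that of control. Differences in amplitude were not tested, because the control amplitude chose the members.

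**Figure D2:**
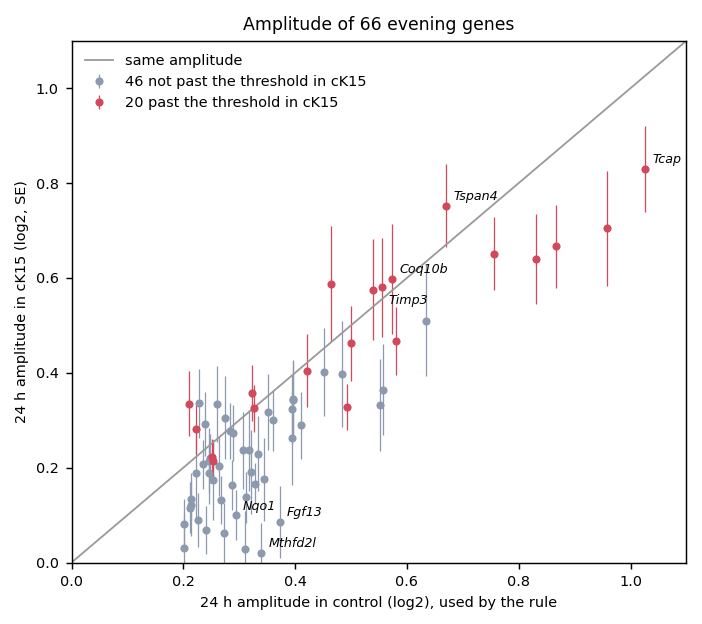
Amplitude of the 24 h curve in control (horizontal, used by the rule) and in cK15 (vertical), log2 scale, for each of the 66 genes, with the standard error of the cK15 value as bars. The 20 genes that passed the cK15 rhythm test lie mostly near the line of equal amplitude, and Mthfd2l, Fgf13 and Nqo1 lie far below it.

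Among genes of the muscle cell, Tcap and Rhobtb1 had the largest control amplitudes. Tcap encodes telethonin, which caps titin at the Z-disc of the sarcomere. It was at 66.1, 89.8 and 93.8 FPKM in the 3 control libraries of 4 am and at 251, 305 and 376 FPKM in those of 4 pm. In cK15 it was at 78.4, 82.9 and 133 FPKM at 4 am and at 240, 286 and 363 FPKM at 4 pm. All 4 pm libraries lay above all 4 am libraries in both genotypes. The amplitude was 1.03 (SE 0.0831) in control and 0.83 (SE 0.0907; limma adjusted p = 5.49e-05) in cK15, with the peak at 16.6 h and 15.3 h. Of 27 tested genes in a list of sarcomere and Z-disc genes, Tcap was the 1 member and the 1 gene rhythmic in cK15. In the averaged level, 5 genes of the list were higher in cK15. For this list and those below, the shares over all tested genes were 1.08% rhythmic in cK15, 4.06% higher and 7.18% lower. No list was tested against these shares. The call of Tcap held in all 32 other settings run, and the adjusted p was at most 0.00963 there.

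Rhobtb1, a protein that takes part in ubiquitin ligase complexes, had its lowest level at 8 am. It was at 6.95, 7.42 and 7.43 FPKM in control at 8 am and at 28.8, 29.5 and 32.1 FPKM at 8 pm. The cK15 libraries held 9.03, 9.21 and 11.9 FPKM at 8 am and 30.4, 34.2 and 34.3 FPKM at 8 pm. At 8 am every cK15 library was above every control library, and at 8 pm the ranges overlapped. Genotypes at single times were not tested, because the rule chose on the control values. The amplitude was 0.87 in control and 0.67 in cK15 (SE 0.0880; limma adjusted p = 0.000515). That call was lost without cK15 replicate 4 at all times (adjusted p = 0.111). Klhl33, a kelch-like protein, cycled with 0.46 and 0.59, but at a mean of 1.16 FPKM, and its call in cK15 (adjusted p = 0.0436) was lost in 21 of 31 settings, 13 of them the loss of 1 library (adjusted p = 0.0512 to 0.109).

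Members of muscle excitability stayed under the threshold in cK15. Kcnh2 encodes the potassium channel of the rapid delayed rectifier current and had amplitudes of 0.32 in control and 0.24 in cK15 (limma adjusted p = 0.501). Fgf13, an intracellular fibroblast growth factor homologue that modulates sodium channels, was at 8.71, 9.16 and 12.0 FPKM in control at 8 pm and at 4.87, 5.14 and 6.06 FPKM at 4 am. In cK15 those times gave 6.502, 8.32 and 10.7 FPKM and 5.49, 6.83 and 7.23 FPKM, which overlap. The control ranges do not, but the rule chose on the control values, so this contrast is no test of a lost rhythm. The Fgf13 amplitude was 0.37 in control and 0.086 in cK15 (SE 0.0758). Of 26 tested ion channel and calcium handling genes, 0 were rhythmic in cK15 by the same limma test (2 at an unadjusted p under 0.05). At a share of 1.08% over all tested genes, 0 calls in a list of this size say nothing particular of it. In the averaged level 6 were higher and 2 lower (4.06% and 7.18% over all tested genes).

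Several members encode enzymes. Adh1, the class I alcohol dehydrogenase that also oxidises retinol, was at 9.36, 9.47 and 10.2 FPKM in control at 8 am and at 48.7, 52.9 and 54.0 FPKM at 8 pm. In cK15 it was at 8.21, 13.8 and 14.1 FPKM and at 30.9, 41.8 and 48.8 FPKM. The 2 times were apart in both genotypes, and at 8 pm the highest cK15 library was level with the lowest control library. That comparison at 1 time is no test, since the control values chose the gene. The amplitude was 0.96 in control and 0.70 in cK15 (SE 0.121; limma adjusted p = 0.0097), a call lost in the 12 cK15 libraries of higher Myl2 (adjusted p = 0.0615) without cK15 replicate 3 or 4 at all times (adjusted p = 0.239 and 0.122) and with no filter on mean FPKM (0.0641).

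Of the folate enzymes Mthfd1l and Mthfd2l, both of mitochondrial one-carbon metabolism, Mthfd1l passed the rhythm test in cK15 and Mthfd2l did not. The 2 genes were not compared by a test. Mthfd1l, which makes formate in mitochondria, was at 0.443, 0.528 and 0.826 FPKM in control at 8 am and at 3.56, 4.70 and 4.74 FPKM at 8 pm. In cK15 it was at 0.726, 0.795 and 0.950 FPKM and at 2.19, 3.06 and 3.71 FPKM. It was rhythmic in cK15 with an amplitude of 0.65 (SE 0.0774, limma adjusted p = 0.000143), against 0.76 in control. Its mean was only 1.70 FPKM, and its cK15 amplitude ran from 0.597 to 1.03 over the other settings. Mthfd2l, a mitochondrial methylenetetrahydrofolate dehydrogenase, had an amplitude of 0.34 in control and of 0.021 in cK15 (SE 0.0631; limma adjusted p = 0.999), the smallest of all members. Its control libraries held 2.06, 2.72 and 3.18 FPKM at 4 am and 3.95, 4.26 and 5.84 FPKM at 8 pm, and its cK15 libraries 3.17, 3.46 and 4.002 FPKM and 3.22, 3.23 and 3.38 FPKM. The control times were apart, while the 8 pm libraries of cK15 lay within its range of 4 am. The rule chose on the control values, so this contrast is no test of a lost rhythm. Of 20 tested genes of NAD and one-carbon metabolism, Mthfd1l was the 1 member and the 1 gene rhythmic in cK15; Mthfd2l is not in that list.

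Gpcpd1, Gpam and Mid1ip1 act on lipids and phospholipids. Gpcpd1, a phosphodiesterase that frees choline from glycerophosphocholine, was at 111, 113 and 126 FPKM in control at 8 am and at 204, 236 and 266 FPKM at 8 pm. The cK15 libraries held 119, 132 and 190 FPKM at 8 am and 199, 258 and 266 FPKM at 8 pm. The 2 times did not overlap in either genotype. The amplitude was 0.50 in control and 0.46 in cK15 (limma adjusted p = 0.0097), with the peak at 20.8 h and 17.8 h. The call was lost without cK15 replicate 3 (adjusted p = 0.399) or 4 (0.262) at all times and with no filter on mean FPKM (0.0552). Gpam, the mitochondrial acyltransferase that starts triglyceride synthesis, was at 104, 105 and 118 FPKM in control at 8 am and 158, 162 and 175 FPKM at 4 pm, and at 74.0, 77.2 and 84.4 FPKM and 105, 109 and 112 FPKM in cK15. Both genotypes were higher at 4 pm in every library, but the cK15 amplitude of 0.17 (SE 0.0429) did not pass (limma adjusted p = 0.153). Mid1ip1, which promotes the polymerisation of acetyl-CoA carboxylase, cycled with 0.63 in control and 0.51 in cK15 (limma adjusted p = 0.0825). In a list of 31 tested genes of lipid storage and phospholipid turnover, Gpam was the 1 member and 2 genes were rhythmic in cK15. In the averaged level, 9 genes of that list were lower in cK15 and 1 was higher.

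Mitochondrial carriers and cofactors were represented by Coq10b and Slc25a33. Coq10b binds coenzyme Q, and Slc25a33 carries pyrimidine nucleotides into mitochondria. Coq10b was at 9.59, 12.2 and 13.7 FPKM in control at 8 am and at 22.6, 25.9 and 30.7 FPKM at 4 pm, and in cK15 at 15.3, 15.8 and 19.7 FPKM and at 24.1, 33.0 and 46.6 FPKM. The 2 times were apart in both genotypes. Its amplitude was 0.57 in control and 0.60 in cK15 (limma adjusted p = 0.0262), a call lost in 11 of 32 settings, 7 of them the loss of 1 library (adjusted p = 0.0520 to 0.0798). Slc25a33 had amplitudes of 0.42 and 0.40 (limma adjusted p = 0.0213), and its call was lost when any 1 of 3 cK15 libraries was left out: 4 am replicate 3 (adjusted p = 0.0509), 4 am replicate 4 (0.0709) and 4 pm replicate 1 (0.0691). It was also lost without cK15 replicate 1 (0.0574), 3 (0.184) or 4 (0.497) at all times and with no filter on mean FPKM (0.0700). Idh1, the cytosolic isocitrate dehydrogenase that makes NADPH, was among the 8 called members with a larger amplitude in cK15 (0.28, limma adjusted p = 0.0202) than in control (0.22). The call was lost in 8 settings. These were the loss of cK15 4 am replicate 4 (adjusted p = 0.0596), 8 am replicate 4 (0.0530) or 4 pm replicate 1 (0.0546), of replicate 1 (0.0761), 3 (0.386) or 4 (0.152) at all times, and fits to the 12 cK15 libraries of higher Myl2 (0.116) and to those of lower Myl2 (0.288).

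The detoxifying enzymes Ephx1, Gstt2, Gclm and Nqo1 had control peaks at 17.99, 17.98, 19.3 and 19.1 h. Ephx1, the microsomal epoxide hydrolase, was at 24.3, 26.5 and 30.3 FPKM in control at 8 am and at 49.9, 56.1 and 56.5 FPKM at 8 pm, and in cK15 at 23.2, 26.8 and 31.5 FPKM and at 37.5, 41.3 and 43.9 FPKM. The morning ranges of the genotypes overlapped, and at 8 pm all cK15 libraries were lower than all control libraries. This contrast of single times is no test, because the rule chose on the control values. Ephx1 was rhythmic in cK15 with 0.33 (limma adjusted p = 0.00199; 0.152 without replicate 4 at all times), against 0.49 in control. The glutathione transferase Gstt2 had amplitudes of 0.54 and 0.57 and passed in cK15 (limma adjusted p = 0.0188), but not without cK15 4 pm replicate 3 (adjusted p = 0.0538) and not in the 12 cK15 libraries of higher Myl2 (0.137). Its call was also lost without cK15 replicate 1 (0.127) or 3 (0.399) at all times. Gclm, the regulatory subunit of the enzyme that limits glutathione synthesis, cycled with 0.27 in control and 0.31 in cK15 (limma adjusted p = 0.2498).

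Nqo1, a quinone reductase and a classic target of the oxidant sensor Nrf2, did not pass the rhythm test in cK15. It was at 43.1, 43.9 and 44.9 FPKM in control at 4 am and at 62.6, 70.3 and 76.2 FPKM at 8 pm, and in cK15 at 35.7, 40.1 and 43.4 FPKM and at 40.6, 46.8 and 48.0 FPKM. The control times were apart and the cK15 times overlapped, but the rule chose on the control values, so this contrast is no test of a lost rhythm. The Nqo1 amplitude was 0.29 in control and 0.10 in cK15 (SE 0.0525; limma adjusted p = 0.839). Of 29 tested genes of oxidant defence and glutathione, 3 were members (Gclm, Nqo1 and Ephx1), 3 were rhythmic in cK15 and 9 were lower in the averaged level.

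Proteins outside the cell and at its surface formed a further group. Tspan4 encodes a tetraspanin of the cell membrane and was at 21.1, 21.3 and 23.2 FPKM in control at 8 am and at 46.9, 47.6 and 61.2 FPKM at 8 pm. In cK15 it was at 12.8, 23.5 and 23.5 FPKM and at 33.3, 40.6 and 53.6 FPKM. The 2 times were apart in both genotypes. Its amplitude was 0.67 in control and 0.75 in cK15 (SE 0.0874; limma adjusted p = 0.000115). The call held in 31 of 32 settings and was lost only in the 6 cK15 libraries of lower Myl2 (adjusted p = 0.0868).

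Timp3 and Thbs2 passed the rhythm test in cK15. Timp3, an inhibitor of metalloproteinases that stays bound to the matrix, was at 8.07, 8.76 and 9.74 FPKM in control at 8 am and at 16.2, 20.1 and 28.4 FPKM at 8 pm. The cK15 libraries held 5.82, 7.33 and 12.4 FPKM and 19.6, 19.95 and 23.3 FPKM. Both genotypes were higher at 8 pm in every library. The amplitudes were 0.56 and 0.58 (limma adjusted p = 0.0136 in cK15). This call was lost without cK15 replicate 3 (adjusted p = 0.281) or 4 (0.419) at all times and with no filter on mean FPKM (0.0700). Thbs2, the matricellular thrombospondin 2, cycled with 0.32 in control and 0.36 in cK15 (limma adjusted p = 0.00712; 0.226 and 0.244 without replicate 3 or 4), and Bmper, a secreted modulator of bone morphogenetic proteins, with 0.21 and 0.33 (limma adjusted p = 0.0405). The Bmper call was lost in 20 of 31 settings, 14 of them the loss of 1 library (adjusted p = 0.0530 to 0.106).

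In a list of 30 tested genes of the extracellular matrix, 14 met the control thresholds at some hour and 9 were rhythmic in cK15, but Timp3 was the 1 gene whose control curve peaked in the evening.

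Genes of protein quality control included Herpud1 and Sqstm1. Herpud1, a protein of the endoplasmic reticulum membrane that serves the degradation of misfolded proteins, was at 102, 107 and 130 FPKM in control at 8 am and at 231, 271 and 276 FPKM at 8 pm. In cK15 it was at 101, 123 and 131 FPKM and at 228, 247 and 290 FPKM, and the 2 times were apart in both genotypes. The amplitude was 0.58 in control and 0.47 in cK15 (limma adjusted p = 0.00303), and the call was lost without cK15 replicate 3 (0.0708) or 4 (0.205) at all times. Of 26 tested endoplasmic reticulum folding and stress genes Herpud1 was the 1 member and the 1 gene rhythmic in cK15. Sqstm1, the autophagy receptor p62, cycled with 0.25 and 0.21, and its call in cK15 (limma adjusted p = 0.0485) was lost in 20 of 32 settings, 14 of them the loss of 1 library (adjusted p = 0.0638 to 0.126). Fbxo32, the muscle ubiquitin ligase atrogin-1, had a larger amplitude in cK15 (0.34) than in control (0.23) but missed the threshold (limma adjusted p = 0.0565). Of 28 tested autophagy and protein degradation genes these were the 2 members, 2 genes were rhythmic in cK15 and 2 were higher and 2 lower in the averaged level. Park2 (parkin) cycled with 0.25 in control and 0.17 in cK15 (limma adjusted p = 0.784), and Zfand2b, a proteasome-associated zinc finger protein, with 0.20 and 0.031 (0.999).

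Among nuclear and cell cycle genes, Wee1, the kinase that holds back entry into mitosis, passed in cK15. It was at 2.36, 2.86 and 4.49 FPKM in control at 12 pm and at 11.3, 12.8 and 13.3 FPKM at 8 pm, and in cK15 at 4.41, 4.65 and 6.29 FPKM and at 9.27, 10.7 and 14.7 FPKM. The 2 times were apart in both. The amplitude was 0.83 in control and 0.64 in cK15 (limma adjusted p = 0.00221), and the call was lost without cK15 replicate 3 (0.0681) or 4 (0.263) at all times. Gadd45a, a stress-inducible growth arrest protein, had 0.41 and 0.29 (limma adjusted p = 0.118). These were the 2 members among 17 tested cell cycle and growth genes, of which 1 was rhythmic in cK15. Rpa2, a subunit of the protein that coats single-stranded DNA, had 0.20 in control and 0.080 in cK15 (limma adjusted p = 0.950), and Max, the dimer partner of Myc, 0.31 and 0.14 (0.586).

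Tsc22d3 (GILZ), a protein induced by glucocorticoids, was at 5.22, 8.92 and 9.50 FPKM in control at 8 am and at 14.7, 16.1 and 29.8 FPKM at 8 pm. In cK15 it was at 9.44, 12.5 and 14.6 FPKM and at 16.3, 20.2 and 23.9 FPKM. Both genotypes were higher at 8 pm in every library. The amplitude of 0.33 in cK15 did not pass (limma adjusted p = 0.279), against 0.55 in control. It was the 1 member among 19 tested glucocorticoid-responsive genes, of which 4 were rhythmic in cK15 and 3 each were higher and lower in the averaged level.

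Cirbp and Rbm3, RNA-binding proteins that are induced by mild cold, peaked early in the window, at 16.1 h and 16.8 h in control. Cirbp was at 30.5, 30.7 and 43.3 FPKM in control at 4 am and at 50.6, 55.8 and 59.4 FPKM at 8 pm, and in cK15 at 28.1, 31.9 and 41.7 FPKM and at 53.0, 55.7 and 55.8 FPKM. The 2 genotypes overlapped at both times. The amplitude was 0.40 in control and 0.35 in cK15 (limma adjusted p = 0.0827), and for Rbm3 it was 0.29 and 0.16 (0.391). Both belong to a list of RNA splicing and RNA binding genes, of which 28 were tested, 1 was rhythmic in cK15 and 2 were higher in the averaged level. Of 31 tested cytosolic heat shock genes, 0 were members and 0 were rhythmic in cK15 by limma (4 at an unadjusted p under 0.05). With 1.08% of all tested genes rhythmic in cK15, that 0 is not particular to the list.

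The other 7 members with the smallest cK15 amplitudes beside Mthfd2l, Fgf13 and Nqo1 were Ypel3, Zfand2b, Wnk4, Zranb1, Rpa2, Ankrd12 and Acap3. Ypel3, a small protein tied to growth arrest, was at 13.2, 15.1 and 16.9 FPKM in control at 8 am and at 23.1, 27.0 and 28.5 FPKM at 8 pm, and in cK15 at 18.6, 22.5 and 24.4 FPKM and at 14.6, 21.6 and 27.0 FPKM. The control times were apart, and the cK15 times overlapped, a contrast that is no test because the rule chose on the control values. Amplitudes of Ypel3 were 0.31 and 0.029, and those of Wnk4, a kinase of ion transport, 0.27 and 0.062 at a mean of 1.02 FPKM. Zranb1, a deubiquitinase, had 0.24 and 0.068, the ankyrin repeat protein Ankrd12 0.23 and 0.089, and Acap3, a GTPase-activating protein of Arf6, 0.21 and 0.12. A low amplitude that misses the threshold does not show that a gene stopped cycling: the standard errors of these 7 were 0.0507 to 0.0796 (log2).

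**Figure D3:**
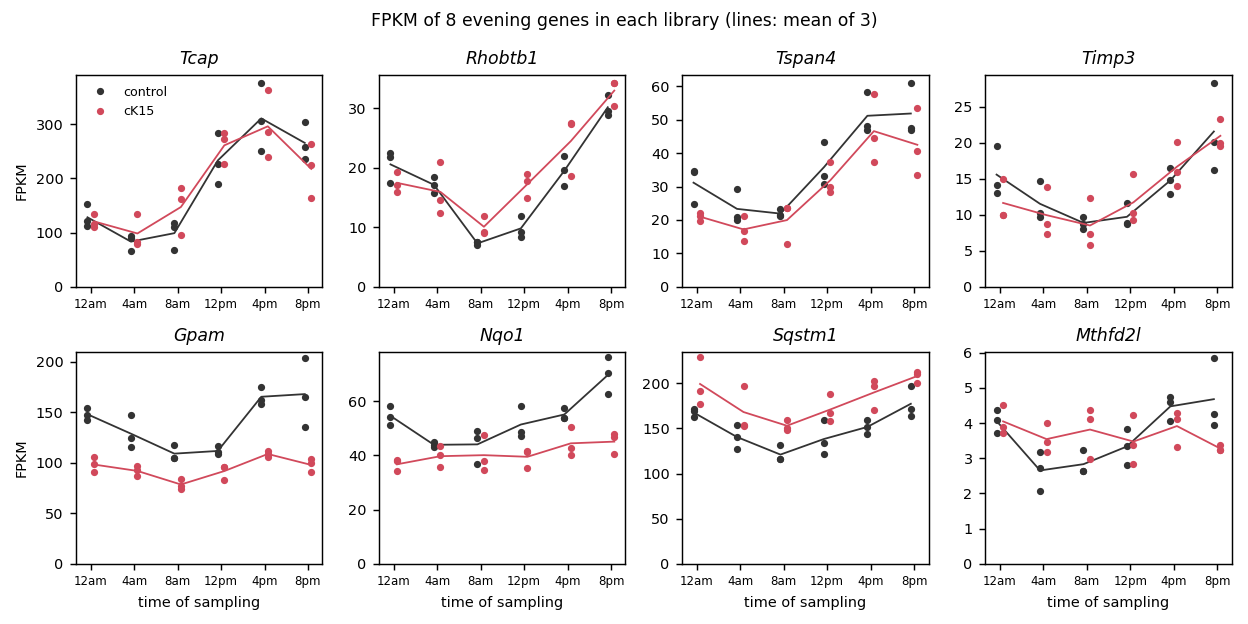
FPKM of 8 evening genes in every library at the 6 times, control in dark grey and cK15 in red, with lines through the mean of 3 libraries. Tcap, Rhobtb1, Tspan4 and Timp3 were rhythmic in both genotypes, Gpam and Nqo1 lay lower and Sqstm1 higher in cK15 averaged over the times, and Mthfd2l had the smallest cK15 amplitude.

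A further 22 members fall outside the rule for named genes and are named here to account for the whole set. Art1, a muscle mono-ADP-ribosyltransferase (0.33 in control, 0.32 in cK15; limma adjusted p = 0.00242), and 3110002H16Rik (0.25 and 0.22; 0.0115) passed the rhythm test in cK15. Both calls were lost in the 12 cK15 libraries of higher Myl2 (adjusted p = 0.0724 and 0.138) and without cK15 replicate 1 (0.107 and 0.128) or 4 (0.0655 and 0.236) at all times, and that of 3110002H16Rik also without replicate 3 (0.194). Those that did not pass were Il33, Ppat, Hdac4, Mlf1, Mylip, Sult1a1, Fn3krp, Shkbp1, Chd6, Rev1, Plod2, Tmem55b, Map2k6, Aox1, Fam214a, Abca12, Fam76a, Dixdc1, Eef2k and Inpp5k. Among them are the alarmin Il33, the histone deacetylase Hdac4, the first enzyme of purine synthesis Ppat and the collagen lysyl hydroxylase Plod2. Mlf1 had the highest level of all members, with 303 FPKM on average.

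Members close to a threshold show how narrow the choice was. At R squared, Fbxo32 and Lepr (0.501 each) were inside, and Slc25a14 (0.496) and Stard3 (0.493) outside. At the amplitude, Rpa2 (0.201) and Zfand2b (0.202) were inside, and Ppp2r3a and Accs (0.197 each) outside. At the early end of the window, Cirbp (16.1 h) and Zfand2b (16.2 h) were inside, and Cygb (15.97 h) and Pfkfb3 (15.3 h) outside. At the late end, Trip10 and Tsc22d3 (21.9 h each) were inside, and Dync2h1 and Lonrf1 (22.1 h each) outside. Lepr, the leptin receptor, had amplitudes of 0.32 and 0.19, and Trip10, an adaptor of membrane curvature, of 0.25 and 0.19. In 1110034G24Rik they were 0.56 and 0.36. None of these 3 passed in cK15 (limma adjusted p = 0.758, 0.444 and 0.165).

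The 20 members rhythmic in cK15 peaked earlier there. Their fitted peak lay between 15.015 and 20.6 h in cK15, with a median of 17.8 h, against 19.3 h for the same genes in control. The peak was earlier in 19 of 20 and later in Klhl33 (by 0.36 h, SE 1.07). The median difference, cK15 minus control, was -1.63 h (-1.82 h in the 24 libraries of higher Myl2), with quartiles of -2.05 and -1.15 h, and the extreme was Gstt2 with -2.96 h (SE 0.957). In cK15, 17 peaks were still within 16 to 22 h and 3 fell before 16 h. The hour of the control peak chose the members, so these differences are not tested. Single differences were -1.34 h (SE 0.519) for Tcap, -2.04 h (SE 0.611) for Rhobtb1, -1.64 h (SE 0.617) for Mthfd1l and -1.95 h (SE 0.868) for Timp3.

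The curves of single replicate numbers gave the same order. The mean of the 66 members peaked at 19.7, 19.3 and 19.6 h in control replicates 2, 3 and 4, and at 17.6, 17.98 and 17.6 h in cK15 replicates 1, 3 and 4. The control and cK15 series did not overlap, and the labels do not say that a number marks 1 animal or day. The peak hour in these same control libraries chose the members, so this order is a description and no separate test. Control rhythmic genes of other hours that passed in cK15 had median differences of -1.13 h (22 to 4 h), -1.53 h (4 to 10 h) and -1.67 h (10 to 16 h). These come from the same 36 libraries.

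Clock genes, counted here with close outputs of the clock such as Sphk2 and Usp2, gave a comparable hour difference. They were taken by name and not by their values. Dbp overlaps Sphk2 on the other strand, and the use of strand in counting is not known, so the values of this pair may not be separate. The 19 compared were Arntl, Clock and Npas2 with genes left out by the rule, but without Hlf and Nfil3. All 19 had an earlier fitted peak in cK15, by a median of -1.59 h. They ranged from -4.30 h in Rora, which was not rhythmic in either genotype, to -0.80 h in Dbp, and 17 of 19 were rhythmic in cK15. A limma test of the difference in rhythm between genotypes called 0 of 10599 genes at an adjusted p under 0.05 (0% of all genes); at an unadjusted p under 0.05 it held for 10 of 19 clock genes and 291 of all genes. The difference was -1.53 h (SE 0.322) for Arntl and -1.63 h (SE 0.350) for Per2, whose adjusted p were 0.361 and 0.352.

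**Figure D4:**
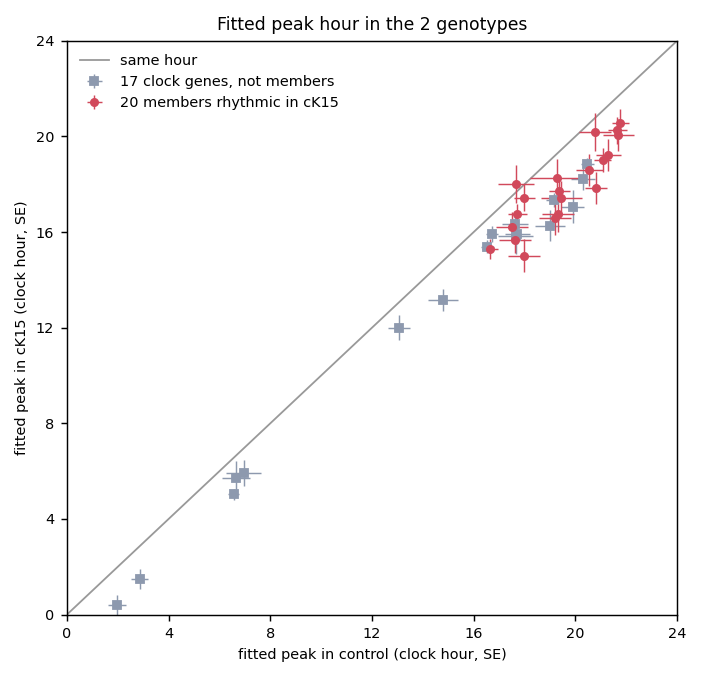
Fitted peak hour in control (horizontal) and cK15 (vertical), with standard errors as bars, for the 20 evening members rhythmic in cK15 (red circles) and 17 clock genes rhythmic in cK15 (grey squares). Of the red points, 19 of 20 lie below the line of equal hours, and all grey points do.

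The level averaged over the 6 times is independent of the cosine and sine that chose the members and was tested over all 36 libraries with limma. The floor on R squared, however, favoured genes of small spread in the control libraries, which this test also uses. Members may therefore pass more easily, and the share of all tested genes is not a matched background. Of 66 members, 17 passed the threshold (25.8%), against 11.2% of all tested genes. Of these, 6 were higher in cK15 (background 4.06%) and 11 lower (background 7.18%); median-ratio rescaling of the libraries gave 8 and 10, and quantile normalization 9 and 9. The median difference over the members was -0.02 and over all tested genes -0.01 (log2). Control rhythmic genes of other hours gave 29 of 99, 19 of 107 and 20 of 76. In the 24 libraries of higher Myl2, 6 members were higher and 7 lower.

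Among members lower in cK15, Gpam had the largest difference. It was at 139 ± 27.99 FPKM in control and 94.5 ± 10.6 FPKM in cK15 (SD, n = 18 each), a log2 difference of -0.53 (SE 0.0437; limma adjusted p = 1.56e-10). At all 6 times all cK15 libraries were lower than all control libraries. Nqo1 followed with 53.2 ± 9.81 and 41.0 ± 4.84 FPKM (SD, n = 18 each; -0.36, SE 0.0485; limma adjusted p = 3.29e-06). In Nqo1 the genotypes were apart at 12 am, 12 pm, 4 pm and 8 pm and overlapped at 4 am and 8 am. Differences at single times are not independent of the rule and were not tested.

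For other members lower in cK15, differences were -0.35 for Gstt2, -0.25 for Ephx1 and -0.23 for Idh1, -0.30 for Thbs2 and -0.21 for Bmper. The PI3-kinase inhibitor Pik3ip1 differed by -0.33 and Tspan4 by -0.29; another was the aldehyde oxidase Aox1 (-0.16, limma adjusted p = 0.0297), which is outside the rule for named genes and was added after its value was seen. Adjusted p of the other 7 named here ran from 0.000719 (Thbs2) to 0.0274 (Bmper). The call of Bmper was lost when any 1 of 3 libraries was left out: cK15 12 am replicate 3 (0.0503), cK15 8 pm replicate 1 (0.0501) and control 12 pm replicate 4 (0.0501). In the 24 libraries of higher Myl2, Gstt2 (adjusted p = 0.123), Thbs2 (0.0558), Bmper (0.111) and Aox1 (0.0522) did not pass. Treating the replicate number as a block removed Gstt2 (adjusted p = 0.243), Pik3ip1 (0.0742), Bmper (0.172) and Aox1 (0.108). The call of Aox1 was also lost when any 1 of 7 libraries was left out (0.0502 to 0.0553). Leaving out a replicate number of 1 genotype at all times ended the calls of Gstt2 for 3 of 6 such numbers (adjusted p = 0.0900 to 0.207), Tspan4 for 3 (0.0962 to 0.180), Bmper for 5 (0.0538 to 0.115), Aox1 for 5 (0.0592 to 0.0916) and Pik3ip1 for 1, control replicate 2 (0.0609).

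Markers of other cell types and nuclear RNA also differed in the averaged level. Of 6 tested fibroblast markers 5 were lower in cK15. The summed level of all 7 listed fibroblast markers was 1384 to 1748 FPKM in control libraries and 1173 to 1544 FPKM in cK15. Of 9 macrophage markers 7 were lower (179 to 274 FPKM and 159 to 252 FPKM), and of 8 cardiomyocyte markers 2 were higher. Of 7 endothelial markers 0 were called by limma, with 6 lower at an unadjusted p under 0.05 (388 to 505 FPKM and 359 to 466 FPKM). Of 3 RNAs retained in the nucleus 1 was lower and all 3 were at an unadjusted p under 0.05, with a median difference of -0.61 (20.03 to 55.8 FPKM and 5.54 to 32.0 FPKM). None of these markers was at 0 in all libraries. Their part in the lower level of Thbs2 and Bmper was not tested, and in bulk tissue fewer cells of a type and less RNA per cell cannot be told apart. Genes of the lymphocyte and adipocyte marker lists were all below the mean of 1 FPKM.

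Higher in cK15 were Tsc22d3 (0.40, SE 0.103; limma adjusted p = 0.00893), Sqstm1 (0.28, SE 0.0456; 4.83e-05), Max (0.25; 0.0140), Zranb1 (0.22; 0.00108), Rhobtb1 (0.21; 0.0358) and Rbm3 (0.17; 0.0270). Sqstm1 was at 149 ± 22.2 FPKM in control and 181 ± 24.9 FPKM in cK15 (SD, n = 18 each). At 8 am its cK15 libraries held 149, 151 and 159 FPKM and its control libraries 116, 116 and 132 FPKM, and at 8 pm 201, 211 and 213 FPKM against 164, 172 and 197 FPKM. The genotypes did not overlap at either time, a description of single times without a test. The Sqstm1 and Zranb1 calls held in all 52 settings run. Without a replicate number of 1 genotype at all times, the call of Tsc22d3 was lost for 3 of 6 such numbers (adjusted p = 0.0513 to 0.0655), that of Max for 3 (0.0526 to 0.220) and that of Rbm3 for 4 (0.0908 to 0.178). The averaged call of Rhobtb1 was lost in 23 of 52 settings, 16 of them the loss of 1 library (adjusted p = 0.0513 to 0.0648). Among the others were the 24 libraries of higher Myl2 (0.179) and the replicate number as a block (0.130). Sqstm1 overlaps Mrnip, and Zranb1 overlaps Fgfr2, each on the other strand, and the sources used here do not tell whether the counting used strand.

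**Figure D5:**
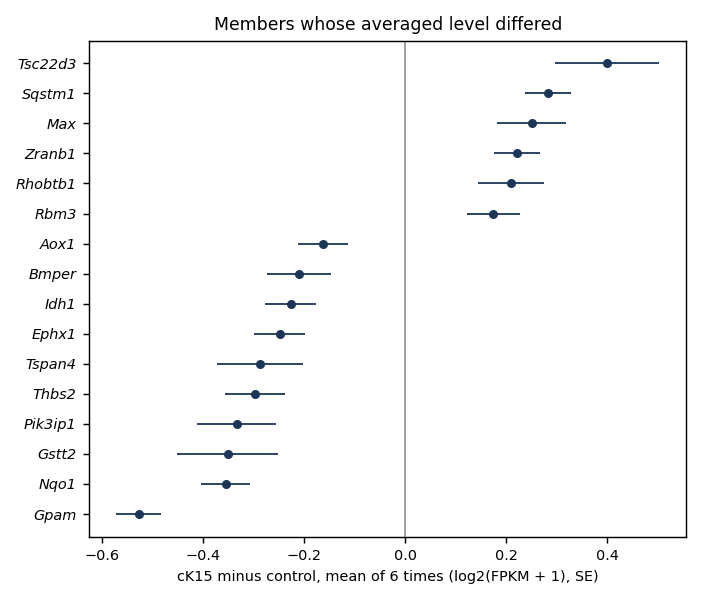
Difference in log2(FPKM + 1) between cK15 and control averaged over the 6 times, with standard errors, for 16 of the 17 evening genes that passed the threshold. Of those drawn, 6 lie to the right of 0, with Tsc22d3 at 0.40 as the highest, and 10 to the left, with Gpam at -0.53 as the lowest.

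Rhythm in cK15 and averaged level were called together in 8 members: Rhobtb1 and Sqstm1, which were higher, and Tspan4, Gstt2, Ephx1, Thbs2, Idh1 and Bmper, which were lower. Gpam and Nqo1, with the largest lower levels, were not among the members rhythmic in cK15, and neither was Tsc22d3, with the largest higher level. The 66 members lie on 19 chromosomes with at most 8 on one. Of the 66, 13 overlap another protein-coding gene in GENCODE M21 (GRCm38), among them Timp3 (with Syn3), Tspan4, Rhobtb1, Sqstm1 and Zranb1.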

How the data were processed

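RNA of heart apex was depleted of ribosomal RNA and sequenced from stranded total RNA libraries as 100 bp pairs, per the labels' protocols. The authors deposited FPKM per gene symbol and library, in a table for each genotype; GSNAP, HTSeq and mm10 are named in the submitters' processing notes, but the sources used here do not state their roles, their versions or the use of strand. The members, gene lists and tests were chosen with earlier results of these data known. From the deposited FPKM, log2(FPKM + 1) was taken, and limma 3.58.1 in R 4.3.3 (trend and robust variance moderation) was fitted to 10599 genes whose FPKM averaged at least 1 over all libraries, without a replicate block, with Benjamini-Hochberg adjustment and a threshold of 0.05. Rhythm was tested in the 18 cK15 libraries (cosine and sine, 24 h) and the averaged level in all 36 (12 group means). Standard errors of amplitude and hour come from the delta method. The scripts were tested on simulated data. Of the symbols, 27 had become dates and 2 were duplicated; these are not named. For 1 member, counted in every total, values are not reported here. Named members are the 15 with the largest control amplitude, the 10 largest and 10 smallest cK15 amplitudes (the largest among called members), up to 10 averaged calls in each direction, up to 3 members of each list and the genes beside each threshold. Alternatives were other pseudocounts, scalings, filters and variance moderation, a replicate block, a test of the 6 time means, and leaving out libraries. FPKM give no depth, so no counting interval is given; an exact 0 can be a failed estimate, since the titin gene Ttn was listed at 0 in every library.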

Additional observations from a re-analysis of the deposited data

How the results depend on the processing

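The count of 20 members rhythmic in cK15 became 11 with no filter on mean FPKM (more genes tested), 7 when any difference among the 6 time means was tested, and, in checks added after the data were seen, 37 with a term for the libraries of lower Myl2, 13 in the 12 cK15 libraries of higher Myl2 and 2 in the 6 of lower Myl2. It was 14 to 24 without any single library, lowest without cK15 4 am replicate 4 or 4 pm replicate 1, and 4 to 14 without a replicate number at all times. The averaged level gave 6 higher and 11 lower members; without a single library 5 to 7 and 8 to 12, without a number at all times 3 to 6 and 7 to 9, and in the 24 libraries of higher Myl2 6 and 7. The rule found 66 genes. Without a single control library it found 60 to 84, of which 52 to 64 were among the 66, fewest without control 8 pm replicate 4. Without control replicate number 2, 3 and 4 at all times it found 226, 115 and 119, of which 59, 54 and 52 were among the 66. In the 12 control libraries of higher Myl2 it found 163, of which 60 were among the 66. The median hour difference of -1.63 h was -1.95 h among members with a mean FPKM of at least 5, -1.82 h and -1.22 h in the 24 libraries of higher and the 12 of lower Myl2, -1.82 to -1.50 h without a single library and -1.94 to -1.43 h without a number at all times. In the leave-out fits 18 to 20 of the 20 peaks were earlier in cK15, so that single hour differences changed sign. The cause of these changes was not tested, except that leaving out libraries leaves fewer samples.

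No averaged difference of a followed member changed sign, and no called cK15 peak moved by over 6 h, in any setting run. Of 2348 values for single members under alternatives, 2116 stayed on their side of the threshold, 212 lost a call and 20 gained one. Treating the replicate number as a block gave 28 members rhythmic in cK15 and 5 higher and 7 lower in the averaged level. The labels do not say what a number marks, and deviations of libraries with the same number and genotype had a median correlation of 0.282, over 0.1 in 70 of 90 pairs, against -0.221 for other numbers (48 of 180). Across genotypes it was 0.237 for the same number (62 of 72). Pairs of libraries of lower Myl2 had 0.495, and pairs with 1 such library -0.291, whatever their number. No pair with 1 such library was over 0.1 (highest -0.147). Such pairs occur within a number, since the library of lower Myl2 was number 4 at 8 pm. The main tests did not use the numbers to pair libraries, and these correlations do not settle that choice. Libraries did group by Myl2 level, and the main tests hold no term for that grouping. Libraries of the same number were also more alike than those of other numbers, and the main tests hold no term for this. Pairs without a library of lower Myl2 had a median of 0.163, over 0.1 in 202 of 264. Whether the numbers group libraries beyond the Myl2 level was not tested.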

Other observations

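Other motifs were counted in the same 79 promoter windows of the members, on both strands. The cyclic AMP element TGACGTCA was in 4 windows (5.06%), against 2.96% of the windows of all tested genes, in Mlf1, Zfand2b and Zranb1. The Kruppel-like factor site GGGNGGGG was in 34 (43.0%, against 48.5%), the CCAAT box CCAAT in 32 (40.5%, against 37.2%) and the loose E-box CANNTG, which includes CACGTG, in 53 (67.1%, against 64.1%). The glucocorticoid response element ACANNNTGT was in 2 (2.53%, against 4.34%), in Aox1 and Mid1ip1, the Ror core TAGGTCA in 1 (1.27%, against 1.92%), in Klhl33, and the heat shock element in 0 (against 0.535%). No test of these shares was made.

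Of 26 tested genes of insulin, PI3-kinase and FOXO signalling, the member was Pik3ip1, 2 were rhythmic in cK15 and 3 were higher and 4 lower in the averaged level. Of 20 tested transporters and carriers the member was Slc25a33, and 2 were rhythmic in cK15.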
